A study of Mus musculus with 18 samples.

Results

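The genes described here are 10 transcripts of neutrophil attraction, acute phase response and alarm signaling, chosen by symbol among the 54232 genes of the raw count table: S100a8, S100a9, Lcn2, Saa3, Slpi, Cxcl1, Cxcl2, Cxcl5, Cxcr2 and Retnlg. All 10 were found in the table and in the GENCODE M21 annotation of GRCm38, where each is protein coding. They were measured by bulk RNA-seq in the lacrimal glands (LGs) of 18 male mice, with 3 mice in each of 6 groups. The groups were BALB/cJ mice (BALB/c), used as healthy controls, and NOD.B10Sn-H2b/J mice (NOD.H-2b), a model of primary Sjögren's syndrome, each studied at the age of 2 months (2M), 4 months (4M) or 6 months (6M). Each sample was 1 LG of 1 mouse. NOD.H-2b mice carry the NOD background with another haplotype of the major histocompatibility complex, and BALB/c is not their congenic partner, so that strain background and disease cannot be told apart in any comparison of the strains.

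S100a8 and S100a9 encode the calcium-binding proteins that pair as calprotectin, an abundant product of neutrophils and an alarmin, that is, a protein that signals tissue damage when released. Lcn2 encodes lipocalin 2, which binds bacterial siderophores, and Saa3 encodes a serum amyloid A protein made outside the liver during inflammation. Slpi encodes a secreted inhibitor of leukocyte serine proteases, including neutrophil elastase, and is made by many mucosal epithelia. Cxcl1, Cxcl2 and Cxcl5 encode chemokines that attract neutrophils through the receptor encoded by Cxcr2, and Retnlg encodes a resistin-like protein of myeloid cells.

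The genes lie in part side by side. S100a8 (chr3:90668978-90670035, plus strand) and S100a9 (chr3:90692632-90695721, minus strand) were 22.6 kb apart. Cxcl5 (chr5:90759360-90761624), Cxcl1 (chr5:90891241-90893115) and Cxcl2 (chr5:90903871-90905938) were all on the plus strand of chr5, with 10.8 kb between Cxcl1 and Cxcl2. Slpi (chr2:164354070-164389095, minus strand) was the single member that overlapped another annotated gene, Mir7678, on the same strand. Since NF-kB and C/EBP factors are known regulators of several of these genes, the 250 bases upstream of the RefSeq start site (GRCm38.p6) were searched on both strands for GGG, any 3 bases and TTCC, a short form of the NF-kB motif, and for TTGCNNAA. A promoter was listed for 9 of the 10 members. This NF-kB pattern was found in 2 of these 9, Cxcl1 and Cxcl2, and in 4.65% of 32851 promoters. A stricter pattern of GGGA, any 2 bases and TTCC, whose matches are a subset of these, was found in the same promoters of Cxcl1 and Cxcl2 and in 1.21% of all promoters. TTGCNNAA was found in 5 of the 9, namely Lcn2, Slpi, S100a9, Saa3 and Retnlg, and in 9.56% of all promoters. The looser TTNCNNAA, which contains every match of TTGCNNAA, was found in 7 of the 9 and in 36.8% of all promoters, and TATAAA in 1 of the 9, S100a8, and in 12.4%. The promoters of the 4 members named below are shown because 3 of them, Slpi, Lcn2 and Cxcl1, carried most of the counts and Cxcl2 shares the stricter match of its neighbor. Capitals mark the NF-kB pattern in Cxcl1 and Cxcl2 and TTGCNNAA in Lcn2 and Slpi, on either strand. The stretches of Slpi and Lcn2 lie inside the GENCODE spans of these genes (Slpi as above, Lcn2 chr2:32384633-32388252). Their RefSeq starts thus differ from the outermost GENCODE starts. The stretches of Cxcl1 and Cxcl2 also end past the GENCODE starts given above, so the positions below count from the RefSeq start site.
Cxcl1, chr5:90890995-90891244, plus strand: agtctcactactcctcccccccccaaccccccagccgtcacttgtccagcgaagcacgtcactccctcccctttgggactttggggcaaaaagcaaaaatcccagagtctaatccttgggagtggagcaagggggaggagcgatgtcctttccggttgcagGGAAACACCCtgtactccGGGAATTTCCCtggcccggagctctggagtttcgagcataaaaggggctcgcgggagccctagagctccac
Cxcl2, chr5:90903649-90903898, plus strand: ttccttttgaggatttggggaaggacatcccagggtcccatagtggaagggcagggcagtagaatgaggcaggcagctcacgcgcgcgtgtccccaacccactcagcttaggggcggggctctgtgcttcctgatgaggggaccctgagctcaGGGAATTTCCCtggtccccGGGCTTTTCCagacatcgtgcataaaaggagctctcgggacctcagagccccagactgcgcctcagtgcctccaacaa
Lcn2, chr2:32387740-32387989, minus strand: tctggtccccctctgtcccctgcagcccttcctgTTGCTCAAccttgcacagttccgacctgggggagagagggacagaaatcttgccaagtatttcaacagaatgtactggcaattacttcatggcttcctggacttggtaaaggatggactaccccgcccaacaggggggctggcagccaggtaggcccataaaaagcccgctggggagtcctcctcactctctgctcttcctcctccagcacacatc
Slpi, chr2:164356508-164356757, minus strand: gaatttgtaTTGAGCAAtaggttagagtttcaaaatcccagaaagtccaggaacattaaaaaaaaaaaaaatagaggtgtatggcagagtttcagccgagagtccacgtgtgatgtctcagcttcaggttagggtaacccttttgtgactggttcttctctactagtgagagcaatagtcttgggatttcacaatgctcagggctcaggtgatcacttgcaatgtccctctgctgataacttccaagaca
Cxcl1 and Cxcl2 both hold GGGAATTTCC, which starts at position -71 and -97 from the start site, respectively.

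The totals ranged from 49480781 to 103936830 counts per mouse, so that 3 counts, taken here as the floor of detection, were worth 0.0322 to 0.0701 CPM (counts scaled to the library's TMM-adjusted total). Counting error is covered by such floors and by the intervals given below, but not the variation between mice. Some mice stood apart. NOD.H-2b 4M replicate 1 had 107681 counts of Ighg1, an immunoglobulin heavy chain constant gene, against at most 1745 in the other 17 mice. In BALB/c 6M replicates 2 and 3, Fos had 1262 and 1664 counts against at most 388 in the other 16 mice. In NOD.H-2b 2M replicate 1 the B cell markers summed to 59 counts, the lowest of the 9 NOD.H-2b mice.

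Slpi, Lcn2 and Cxcl1 were the members with substantial expression, and the other 7 were at or near the floor in most mice. Per kilobase of exon, the NOD.H-2b mice had 20.9 ± 29.6 CPM of Slpi, 5.12 ± 1.3 CPM of Lcn2 and 1.42 ± 0.682 CPM of Cxcl1 (SD, n = 9 over the 3 ages). The length was that of all annotated exons of a gene merged, which can exceed the length of a transcript, so the order of members on this scale depends on the annotation. The SD of Slpi exceeded its distance from Lcn2. On the same scale of CPM per kilobase, S100a9 followed at 0.274 ± 0.229, and the other 6 members lay between 0.0209 (Cxcr2) and 0.0868 (S100a8), with SDs close to or above their means apart from Saa3. In BALB/c, Lcn2 (2.58 ± 0.724 CPM per kilobase) and Slpi (2.2 ± 2.07) were within each other's spread and Cxcl1 was at 0.566 ± 0.212 (SD, n = 9).

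At all 3 ages NOD.H-2b mice had more Slpi, the protease inhibitor, which was higher at 6M than at 2M in both strains. In NOD.H-2b the median was 3.21 CPM at 2M, 23.9 CPM at 4M and 17.7 CPM at 6M. At 2M the BALB/c mice had 1, 11 and 4 counts of Slpi, and the NOD.H-2b mice had 106, 282 and 204. At 4M the counts were 199, 77 and 212 in BALB/c versus 7618, 1544 and 846 in NOD.H-2b. At 6M they were 217, 316 and 240 in BALB/c versus 1358, 1249 and 960 in NOD.H-2b. The strains did not overlap at any age, and each BALB/c group of 4M and 6M stood above that of 2M. The log2 fold change of NOD.H-2b over BALB/c for Slpi was 5.01 ± 0.59 at 2M (SE; adjusted p = 0.000343), 4.22 ± 1.06 at 4M (adjusted p = 0.0351) and 2.01 ± 0.39 at 6M (adjusted p = 0.00693, quasi-likelihood test of edgeR, adjusted by Benjamini-Hochberg over all genes tested). In CPM the 4M mean of NOD.H-2b was 52 ± 54.9 (SD, n = 3), since replicate 1 had 115 CPM and the others 23.9 and 16.9. In this mouse Slpi ranked second among all genes by its distance above the next mouse, after Ighg1. Without it the 4M log2 fold change of Slpi was 2.86 (adjusted p = 0.00632). The 4M call of Slpi was lost without BALB/c replicate 1, 2 or 3 (adjusted p = 0.106, 0.107 and 0.112) or NOD.H-2b replicate 2 (adjusted p = 0.0514), and when genes of low counts were kept in the test (adjusted p = 0.0555). The part of the Ighg1-rich mouse's other transcripts in its Slpi value was not tested. The 2M value was 6.05 without BALB/c replicate 2, and the 6M value 3.03 without BALB/c replicates 2 and 3, which leaves 1 BALB/c mouse that is assumed to vary like the other group.

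**Figure D1:**
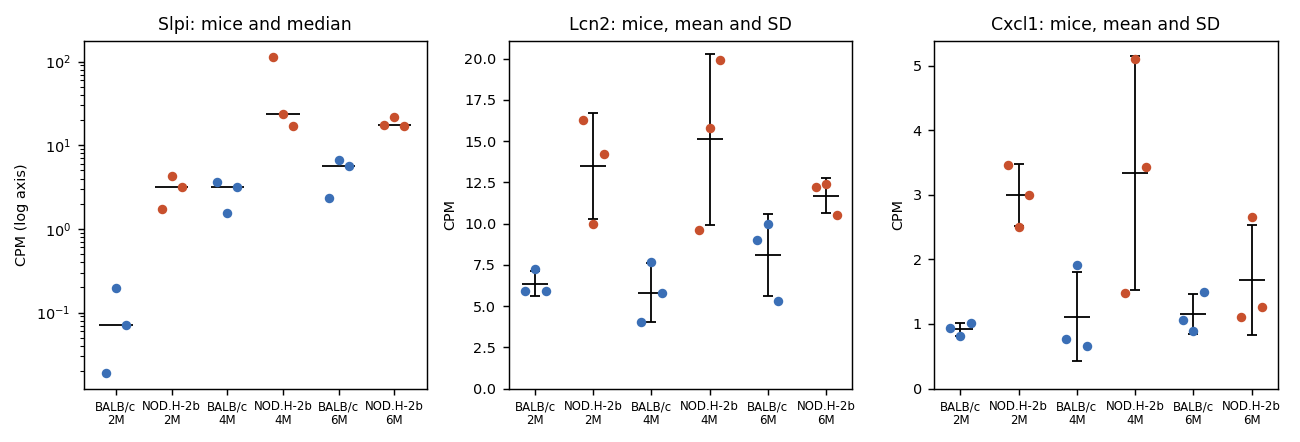
CPM of Slpi (log axis, bar: median of 3 mice), Lcn2 and Cxcl1 (linear axes, bars: mean and SD) in each mouse of the 6 groups, BALB/c in blue and NOD.H-2b in red. Slpi of the 2 strains does not overlap at any age, and 1 NOD.H-2b mouse of 4M stands at 115 CPM.

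NOD.H-2b mice had about 2-fold more Lcn2 at 2M and 4M. The counts of Lcn2 at 2M were 309, 404 and 335 in BALB/c versus 990, 660 and 903 in NOD.H-2b. At 4M they were 219, 377 and 387 in BALB/c versus 636, 1022 and 992 in NOD.H-2b. At 6M they were 839, 471 and 226 in BALB/c versus 935, 708 and 601 in NOD.H-2b. BALB/c 6M replicate 1, the most deeply sequenced mouse, had more counts than 2 of the NOD.H-2b mice but 9.01 CPM against 10.5 to 12.4 CPM. The mean was 6.36 ± 0.777 CPM for BALB/c and 13.5 ± 3.17 CPM for NOD.H-2b at 2M, and 8.11 ± 2.5 and 11.7 ± 1.02 CPM at 6M (SD, n = 3). The log2 fold change of Lcn2 was 1.13 ± 0.18 at 2M (adjusted p = 0.00157, edgeR) and 1.38 ± 0.34 at 4M (adjusted p = 0.0211), and both passed the call of an FDR under 0.05 with at least a 2-fold change. At 6M it was 0.56 ± 0.21 (adjusted p = 0.0535), which did not pass. Without NOD.H-2b 2M replicate 1 the 2M value was 0.97, just under 2-fold.

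Among the chemokines, Cxcl1 stood higher at 2M in the NOD.H-2b mice. BALB/c mice of 2M had 49, 45 and 57 counts of Cxcl1, and NOD.H-2b mice had 211, 165 and 191, with no overlap. At 4M the counts of Cxcl1 were 42, 94 and 44 in BALB/c versus 98, 330 and 172 in NOD.H-2b, and the groups overlapped in CPM (0.656 to 1.91 against 1.48 to 5.1). At 6M they were 99, 42 and 64 in BALB/c versus 85, 152 and 72 in NOD.H-2b, again with overlap. The log2 fold change of Cxcl1 was 1.75 ± 0.20 at 2M (adjusted p = 4.4e-05, edgeR), 1.61 ± 0.59 at 4M (adjusted p = 0.0735) and 0.58 ± 0.36 at 6M (adjusted p = 0.201). Only the first of these passed. At 4M, leaving out BALB/c replicate 2 or NOD.H-2b replicate 1 brought Cxcl1 past the test (log2 fold changes of 2.22 and 1.97, adjusted p = 0.0219 and 0.0209). It also passed at 4M with DESeq2's Wald test (adjusted p = 0.00217) and in 1 fit of all 18 mice (adjusted p = 0.00866).

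Cxcl2 and Cxcl5 had few counts. Cxcl2 had 2, 0 and 0 counts in BALB/c versus 13, 9 and 24 in NOD.H-2b at 2M. Pooled CPM were the summed counts of a group over its summed TMM-adjusted totals. The ratio of pooled CPM of Cxcl2 at 2M was 19.9, with an exact binomial 95% interval of 5.21 to 169. At 4M Cxcl2 had 0, 2 and 2 counts in BALB/c versus 0, 5 and 14 in NOD.H-2b, and at 6M 0, 0 and 6 against 4, 3 and 3, so that the groups overlapped at both ages. Cxcl5 was at 0 in all 6 BALB/c mice of 2M and 4M. In NOD.H-2b, Cxcl5 had 3, 0 and 1 counts at 2M, 4, 8 and 14 at 4M, and 0 in all 3 mice at 6M. With 0 counts of Cxcl5 in BALB/c against 26 in NOD.H-2b at 4M, the exact binomial 95% interval of the ratio of pooled CPM had a lower limit of 6.19. At 6M Cxcl5 had 0, 1 and 1 counts in BALB/c.

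The receptor Cxcr2, through which these chemokines act, had a single count in the 9 BALB/c mice. In NOD.H-2b it had 1, 0 and 0 counts at 2M, 9, 10 and 2 at 4M, and 8, 6 and 1 at 6M. At 4M, with 0 counts in BALB/c against 21, the exact binomial 95% interval of the ratio for Cxcr2 had a lower limit of 4.91. At 6M, with 1 count in BALB/c versus 15 in NOD.H-2b, the ratio of pooled CPM was 14.4, with an exact binomial 95% interval of 2.21 to 606.

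The calprotectin genes followed a similar order of groups. S100a9 was at 0 in the BALB/c mice of 2M and had 2, 0 and 4 counts in NOD.H-2b at that age. At 4M S100a9 had 0, 4 and 0 counts in BALB/c versus 7, 20 and 12 in NOD.H-2b, and at 6M 1, 0 and 4 against 25, 7 and 5. The ratios of pooled CPM of S100a9 were 9.2 at 4M (exact binomial 95% interval 3.32 to 35.4) and 7.1 at 6M (2.78 to 23.1). The strains did not overlap at 4M. At 6M they did not overlap in counts, but 1 BALB/c mouse at 0.0935 CPM stood above 1 NOD.H-2b mouse at 0.0877 CPM. S100a8 was at 0 in all 6 BALB/c mice of 2M and 4M and had 1, 1 and 0 counts in NOD.H-2b at 2M. At 4M the NOD.H-2b mice had 6, 12 and 1 counts of S100a8, and the exact binomial 95% interval of the ratio to BALB/c had a lower limit of 4.4. At 6M S100a8 had 1, 0 and 1 counts in BALB/c versus 7, 0 and 7 in NOD.H-2b.

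Saa3 had 1, 1 and 2 counts in BALB/c at 2M and 24, 3 and 7 in NOD.H-2b. At 4M it had 1, 10 and 1 counts against 14, 17 and 18, and at 6M 2, 8 and 0 against 17, 11 and 5. The strains overlapped at 6M and did not at 2M and 4M. Saa3 was tested at 4M, with a log2 fold change of 1.89 ± 0.78 (SE; adjusted p = 0.0761, edgeR), and without BALB/c 4M replicate 2 it was 3.90 (adjusted p = 0.0055). Retnlg stayed near the floor. It had at most 1 count in each of the 9 BALB/c mice and in 8 of the 9 NOD.H-2b mice, and 9 counts in NOD.H-2b 4M replicate 1.

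**Figure D2:**
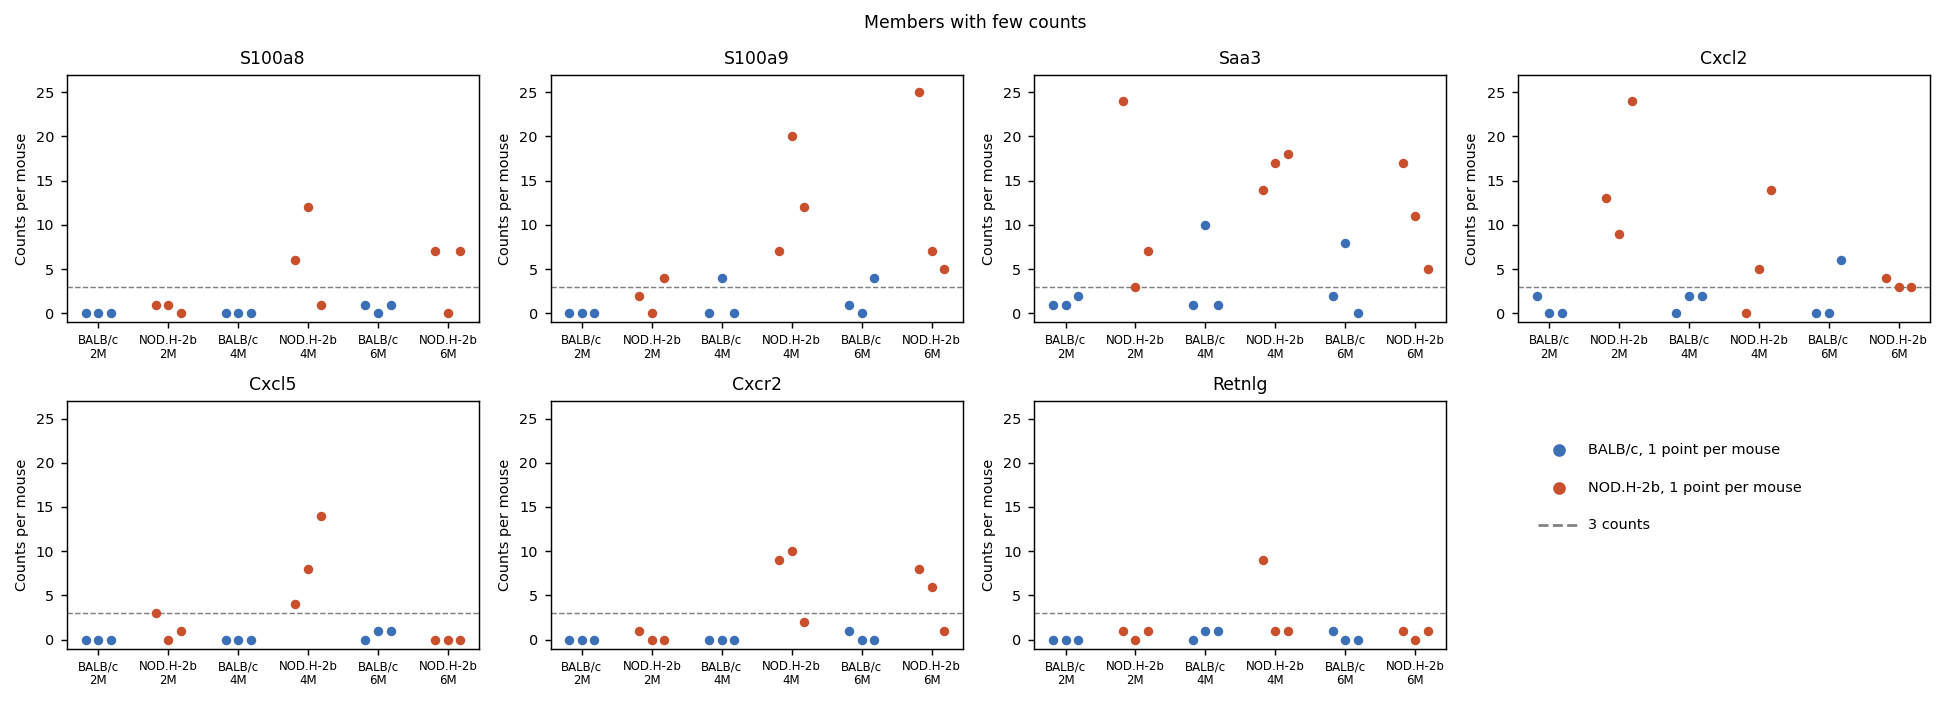
Counts per mouse of the 7 members with few counts (vertical axis, linear) in the 6 groups, 1 point per mouse, BALB/c in blue and NOD.H-2b in red, with the floor of 3 counts dashed. The highest counts were in NOD.H-2b mice for each of the 7, up to 25 for S100a9, and Cxcl5 was at 0 in NOD.H-2b at 6M.

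Counted over the members, all 3 that passed the filter on low counts at 2M (Slpi, Lcn2 and Cxcl1) were higher in NOD.H-2b, where 12.0% of all genes tested were called higher and 3.76% lower. At 4M 2 of 4 tested members (Slpi and Lcn2) were higher, against 15.6% of all genes. Both calls at 4M were lost without BALB/c replicate 1, BALB/c replicate 3 or NOD.H-2b replicate 2, and that of Slpi also without BALB/c replicate 2. Both were also lost when genes of low counts were kept in the test (adjusted p = 0.0771 for Lcn2). At 6M 1 of 3 tested members (Slpi) was higher, against 18.8% of all genes called higher and 6.03% called lower. A member passes the filter through the group where it is high, so that these counts describe the members tested and not all 10. In bulk RNA, fewer cells of a type and less RNA per cell cannot be told apart.

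Averaged over the 3 ages in a fit of all 18 mice, 5 of 6 tested members were higher in NOD.H-2b, against 17.6% of all genes tested that were called higher and 5.19% called lower. S100a9, Cxcl2 and Saa3, with at most 4, 6 and 10 counts in a BALB/c mouse, passed the filter through NOD.H-2b. The count therefore describes the members tested and does not show an excess of higher members. With at least 10 counts in every mouse, the members called were Lcn2 and Cxcl1. Slpi had a log2 fold change of 3.72 ± 0.51 (SE; adjusted p = 2.45e-05, edgeR), S100a9 of 3.22 ± 0.89 (adjusted p = 0.00413) and Cxcl2 of 2.25 ± 0.77 (adjusted p = 0.0158). Saa3 followed at 2.06 ± 0.58 (adjusted p = 0.00396) and Cxcl1 at 1.28 ± 0.26 (adjusted p = 0.000464). Lcn2, at 1.00 ± 0.17 (adjusted p = 0.000132), passed the FDR but was 1.99-fold, just under the fold threshold, and it was past it with DESeq2's size factors (log2 fold change 1.03). The call of Cxcl2 was lost without NOD.H-2b 4M replicate 3 (log2 fold change 1.75, adjusted p = 0.0622), and the value rose to 3.19 without BALB/c 2M replicate 1 and to 3.68 without BALB/c 6M replicate 3. S100a9 reached 4.46 without BALB/c 4M replicate 2 and 3.83 without BALB/c 6M replicate 3, and Saa3 2.75 and 2.71 without replicate 2 of BALB/c 4M or 6M.

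**Figure D3:**
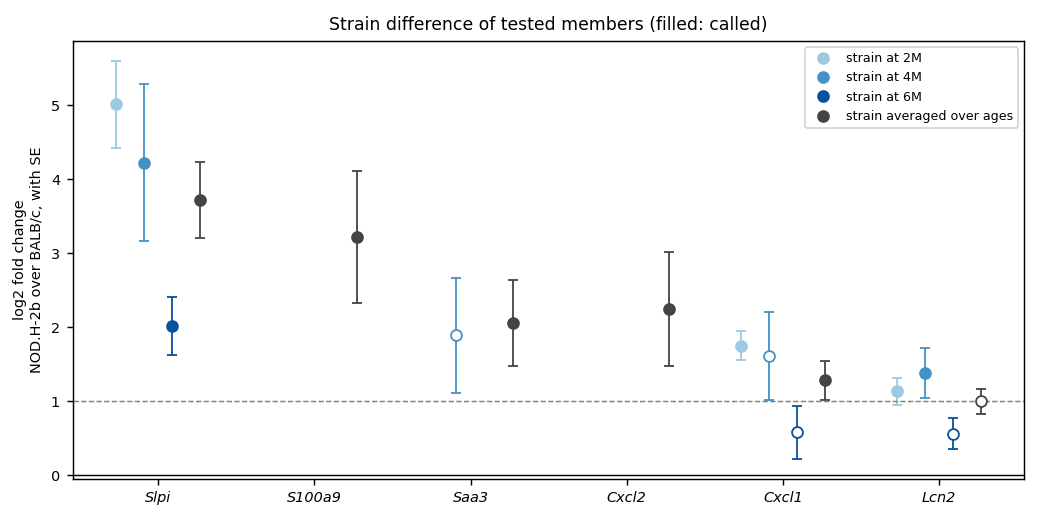
Log2 fold change of NOD.H-2b over BALB/c with its SE (vertical axis) for each tested member at 2M, 4M, 6M and averaged over ages; filled points passed an FDR under 0.05 with at least 2-fold, and the dashed line is 2-fold. Slpi was filled at all 3 ages, with 5.01 at 2M and 2.01 at 6M.

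The strain difference was then compared between 2M and 6M. The fitted change was negative for all 6 tested members, and 0 of 6 passed the test for strain by age (edgeR), where 3.60% of all genes were called in the positive and 1.50% in the negative direction. At an unadjusted p under 0.05 the count was also 0, and DESeq2's Wald test called 1 member, Slpi (adjusted p = 0.0321). The change was -2.99 ± 1.55 for Slpi (adjusted p = 0.211), -3.59 ± 2.03 for Cxcl2 (adjusted p = 0.239) and -1.16 ± 0.65 for Cxcl1 (adjusted p = 0.237, edgeR). Lcn2 (-0.56 ± 0.42), Saa3 (-1.30 ± 1.53) and S100a9 (-1.43 ± 1.79) had SEs close to or above the size of the change. Leaving out 1 mouse turned the sign for 3 of the 6, Saa3 to 0.55 without BALB/c 6M replicate 2, and S100a9 to 0.29 and Cxcl2 to 0.57 without BALB/c 6M replicate 3. Without NOD.H-2b 4M replicate 1, which enters this fit through the shared spread, Slpi passed (-2.99, adjusted p = 0.0437). In simulated data, this test recovered 139 of 200 genes changed 3-fold and 191 of 200 changed 4-fold. The simulated changed genes had many counts and the same set spread. These shares therefore do not apply to S100a9, Saa3 and Cxcl2, which had few counts, and recovery at the spread of Slpi or Cxcl1 was not simulated.

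Within strains, Slpi was the single member called between 2M and 6M. Its BALB/c log2 fold change was 5.60 ± 0.70 (SE; adjusted p = 0.0116, edgeR), 1 of 3 tested members, where 1.57% of all genes rose. Without BALB/c 2M replicate 3 the adjusted p was 0.0725, without replicate 2 of that group the value was 6.65, and without BALB/c 6M replicates 2 and 3, which leaves 1 mouse of 6M, it was 4.55. In NOD.H-2b the log2 fold change of Slpi was 2.59 ± 0.34 (adjusted p = 0.00396), 1 of 4 tested members, where 10.9% of all genes rose. Cxcl1 in NOD.H-2b had a log2 fold change of -0.86 ± 0.33 (adjusted p = 0.0721), and -1.35 (adjusted p = 0.00235) without NOD.H-2b 6M replicate 2. These comparisons share their mice with those of the strains at 2M and 6M.

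Neutrophil markers were examined beside these genes. Of 27 listed markers, 9 had at most 3 counts in every mouse, among them Ly6g and the granule genes Elane and Ngp, and the granule gene Camp was at 0 in all 18 mice, as were Stfa2 and Fcnb. In contrast, 4 markers had over 3 counts in every mouse, among them the granule gene Mpo, with 10 to 39 counts in BALB/c and 8 to 29 in NOD.H-2b. The summed level of the 27 markers was 18.2 to 24 CPM for BALB/c and 22.6 to 30.7 CPM for NOD.H-2b, over the 9 mice of each strain. Much of this sum came from Lrg1, with 642 to 1190 counts in BALB/c and 738 to 1390 in NOD.H-2b. Il1r2 also had a large part, with 161 to 549 counts against 84 to 171, so the sum says little about the other markers. Averaged over ages, 6 of 11 tested markers rose and 2 fell with the NOD.H-2b strain, against 17.6% and 5.19% of all genes tested. The median log2 fold change of these 11 was 2.30. At 6M 6 of 10 were higher and 1 lower, against 18.8% and 6.03%. A marker low in BALB/c passes the filter through NOD.H-2b, so these counts and medians describe the markers tested and not all 27. At 2M, where Slpi, Lcn2 and Cxcl1 were called, 2 of 6 tested markers were higher and 1 lower (median log2 fold change 0.38), against 12.0% and 3.76% of all genes tested. The medians are over different sets of markers, since the filter removed more of them at 2M. Cd177 was among those removed, with 0 counts in the BALB/c mice of 2M and 9, 22 and 9 in NOD.H-2b. Csf3r, the receptor of granulocyte colony-stimulating factor, rose by 2.30 ± 0.15 on the log2 scale (adjusted p = 1.92e-10) and Mcemp1 by 3.94 ± 0.31 (adjusted p = 2.46e-09), while Il1r2, the decoy receptor of interleukin 1, fell by 1.23 (SE 0.092, adjusted p = 9.67e-10, edgeR, strains averaged over ages). Cd177 had 9 to 47 counts in the NOD.H-2b mice and at most 1 in BALB/c. Stfa3 had 0 to 47 counts in NOD.H-2b and 0 in every BALB/c mouse.

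**Figure D4:**
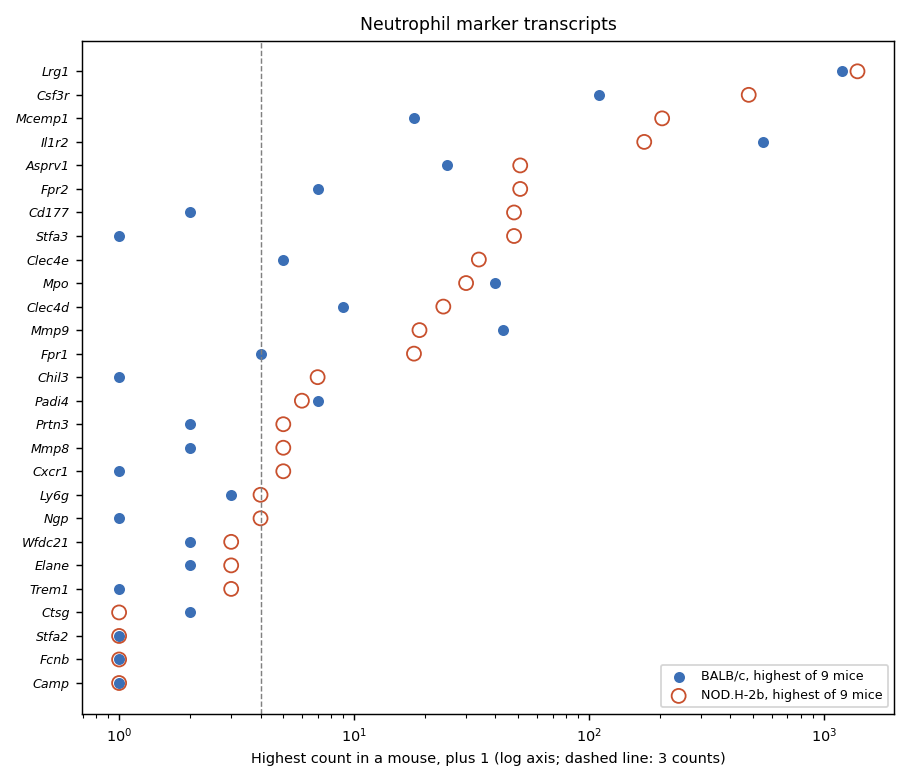
Highest count among the 9 mice of each strain, plus 1 (log axis), for the 27 neutrophil markers; filled blue, BALB/c; open red, NOD.H-2b; the dashed line is 3 counts. Camp, Fcnb and Stfa2 were at 0 in both strains, whereas Csf3r reached 478 counts and Mcemp1 204 in NOD.H-2b.

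Other cell types moved with strain in the same samples. Of all genes tested, 17.6% were called higher and 5.19% lower for the average, and 18.8% and 6.03% at 6M. A listed gene low in BALB/c passes the filter through NOD.H-2b, so the counts here and below describe the genes tested. Macrophage markers summed to 62.4 to 174 CPM for BALB/c versus 251 to 514 CPM for NOD.H-2b, and 11 of 12 were higher averaged over ages (Cd68, C1qa and Adgre1 by 1.68, 2.10 and 2.13 on the log2 scale) and 10 of 12 at 6M. All 8 B cell and all 8 T cell markers were higher, averaged over ages and at 6M, with median log2 fold changes of 7.38 and 5.21 for the average. Epithelial structure genes were called higher in 1 of 12 cases and lower in 0 for the average, and in 2 and 0 at 6M. Lacrimal gland genes were higher in 1 and lower in 2 of 10 for the average, and in 1 and 3 at 6M. The part of these cell types in the differences of the members and of the neutrophil markers, among them Csf3r and Mcemp1, was not tested.

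Genes of neutrophil recruitment were higher in 8 of 13 tested for the average, with 0 lower, and in 8 of 12 at 6M, with 1 lower. For this list and the next, the shares of all genes were 17.6% higher and 5.19% lower for the average. At 6M they were 18.8% and 6.03%. Icam1, the endothelial ligand of leukocyte integrins, rose by 3.14 ± 0.13 on the log2 scale and Itgb2, the shared integrin chain, by 3.01 ± 0.18 (adjusted p = 3.2e-12 and 3.53e-09, edgeR, strains averaged over ages). Both are also expressed outside neutrophils. Cxcl3, Cxcl15 and Il17a were at 0 in every mouse. Among acute phase genes and cytokines, 8 of 12 were higher for the average and 9 of 12 at 6M, with 0 lower in each. Serpina3n, an acute phase serpin, rose by 3.49 ± 0.088, Tnf by 4.01 ± 0.26 and C3, the central complement component, by 1.77 ± 0.11 (adjusted p = 1.59e-16, 1.89e-10 and 5.64e-09). Of the other S100 genes, 3 of 8 were higher for the average, with 0 lower, and 3 of 7 at 6M, with 1 lower, beside the same shares of all genes. S100a10 rose by 1.96 ± 0.07, S100a4 by 2.78 ± 0.33 and S100a13 by 1.50 ± 0.19 on the log2 scale (adjusted p = 2.87e-14, 4.34e-07 and 8.61e-07).

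Alarmin receptors and downstream genes were higher in 5 and lower in 1 of 16, for the average as well as at 6M. For this list and the next, the shares of all genes were 17.6% higher and 5.19% lower for the average. At 6M they were 18.8% and 6.03%. Tlr2 rose by 2.09 ± 0.13 and Tnfaip3, an inhibitor of NF-kB signaling, by 1.47 ± 0.072 on the log2 scale, while Slc22a17, which encodes a receptor of lipocalin 2, fell by 1.07 (SE 0.066; adjusted p = 6.08e-11, 2.59e-12 and 6.88e-11, edgeR, strains averaged over ages). Among WAP domain and other protease inhibitors, the group of Slpi, 4 of 10 were higher for the average and 3 of 8 at 6M, with 0 lower. Serpinb1a, an inhibitor of neutrophil proteases, rose by 3.17 ± 0.23, Wfdc17 by 1.46 ± 0.14 and Serpina1a by 5.15 ± 0.80 (adjusted p = 3.01e-09, 4.11e-08 and 3.91e-05). Serpina1a rested on few counts, at most 1 in a BALB/c mouse and 19 in a NOD.H-2b mouse, and was not tested at 2M or 6M. The median log2 fold changes of these 5 lists for the average were 2.20, 1.71, 1.01, 0.48 and 0.42 in the order given, beside -0.016 for all genes tested.

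Immediate early genes were higher in 7 of 13 at 2M, with 0 lower (median log2 fold change 1.05), in 2 of 13 for the average, with 0 lower, and in 0 at 6M, with 1 lower. Of all genes tested, 12.0% were called higher and 3.76% lower at 2M. Here and for the lists below, the shares were 17.6% and 5.19% for the average and 18.8% and 6.03% at 6M. The summed level of the immediate early genes was 115 to 158 CPM for BALB/c versus 184 to 226 CPM for NOD.H-2b at 2M, the age at which Cxcl1 and Cxcl2 did not overlap between strains, and 130 to 377 against 178 to 228 CPM at 6M. Their part in the chemokine values was not tested. Erythroid genes were higher in 3 and lower in 1 of 6 for the average, and in 1 and 1 of 5 at 6M. Of platelet genes 1 of 2 was lower in both comparisons, of salivary gland genes 1 of 3 was lower in both, and of adipocyte genes 0 of 6 and 0 of 2 were called. Skeletal muscle genes were higher in 1 and lower in 1 of 2 for the average, and lower in 1 of 1 at 6M.

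Within groups, Slpi varied against the other tested members. Over the 18 mice, with the mean of each group subtracted, Pearson's r of log2 CPM was 0.74 between Lcn2 and Saa3, 0.66 between S100a9 and Cxcl2, 0.59 between S100a9 and Cxcl1 and 0.53 between Cxcl1 and Cxcl2, and it was -0.02 between Saa3 and Cxcl2, whereas Slpi had negative values with each of the other 5 tested members, from -0.31 with Saa3 to -0.56 with Cxcl1. The genes nearest to Slpi by this measure were Ighg1 (0.89), Zfp189 (0.87) and D5Ertd579e (0.86). Those nearest to Lcn2 were Mxra8 (0.96), Gm13400 (0.92) and Cdh1 (0.91), and those nearest to Cxcl1 were Aktip (0.89), Ndnl2 (0.88) and Swsap1 (0.87). S100a9 was nearest to Ghdc (0.89), Wfdc18 (0.89) and Dbi (0.86), Saa3 to Crlf2 (0.82), Plekha1 (0.82) and Agk (0.81), and Cxcl2 to Slc30a6 (0.94), Gpn2 (0.93) and Stra13 (0.92). The points share their libraries, 1 mouse sets much of the Slpi values, and S100a9, Saa3 and Cxcl2 rest on few counts, so these values are descriptions.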

How the data were processed

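Total RNA of 1 LG per mouse was depleted of ribosomal RNA and sequenced (18 mice, 3 per group). Reads were trimmed (cutadapt) and mapped to GRCm38 (STAR) by the authors, and HTSeq counts per gene were deposited without normalization. Versions, annotation release, strand setting and multi-mapping rules are not given in the sources used here, and near-identical paralogs may share reads. A second deposited table of normalized values was not used.

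Counts were analyzed in R 4.3.3 with edgeR 4.0.16 and limma 3.58.1 (TMM, filterByExpr, robust quasi-likelihood test, Benjamini-Hochberg adjustment over all genes tested), and a call needed an FDR under 0.05 and at least a 2-fold change. Strains at each age and ages within a strain were fitted on 6 mice, the average and strain by age on 18. SEs were computed from the fold change and the F statistic. CPM used TMM-scaled totals. Low members are given as ratios of pooled CPM with exact binomial 95% intervals, or, against a group at 0, as the lower limit of that interval. Pooling sums counts and TMM-scaled totals over a group, so that mice with larger totals weigh more. Pairs of replicates differed by more than counting error. Replicates are separate mice.

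The members and the lists were chosen with earlier results of these data known. All 10 members are named, and of each list up to 3 called genes with the smallest p for the average, apart from 1 gene that is not reported here. Cd177, Camp, Stfa2, Stfa3, Fcnb, Ly6g, Elane, Ngp, Mpo, Lrg1, Cxcl3, Cxcl15, Il17a, Ighg1 and Fos were named after their values were seen. The nearest genes had an average log2 CPM of at least 0.

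Alternatives were other normalizations, other count filters, DESeq2 1.42.0, the FDR alone, 1 fit of all mice, the replicate number as a block and leaving out each mouse. Leaving out BALB/c 6M replicates 2 and 3 together was added after seeing the data. The test was tried on simulated data with 200 changed genes, drawn from genes with many counts, and the same spread was set for every gene. The strains at 4M gave 196 recovered at 3-fold and 200 at 4-fold, with 5 and 3 false calls among 17677 and 17703 genes. Strain by age gave 139 and 191, with 10 and 12 false calls among 18476 and 18455 genes. A first limit on the number recovered was not met by strain by age at 3-fold. It was replaced by limits on signs, false calls and fitted size, and the 4-fold simulation was added.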

Additional observations from a re-analysis of the deposited data

How the results depend on the processing

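Of 544 recomputed log2 fold changes of members over 7 comparisons, 500 kept their direction and their side of the threshold, 12 no longer passed, 24 newly passed and 8 changed sign. The share of all genes called was not computed for the alternatives. The counts of members called below are therefore descriptions and do not set the members against other genes. Without a filter on low counts, 5 members were called at 2M, 5 at 4M, 3 at 6M, 8 for the average and 3 from 2M to 6M in NOD.H-2b, in place of 3, 2, 1, 5 and 1; at 4M those were S100a8, S100a9, Saa3, Cxcl5 and Cxcr2, and Slpi and Lcn2 did not pass. With at least 10 counts in every mouse, which removes Slpi from fits with BALB/c at 2M, 2 were called for the average and 0 from 2M to 6M in BALB/c. In 1 fit of all 18 mice, 4 were called at 4M and 2 at 6M. DESeq2's Wald test called 1 member for strain by age. Leaving out each mouse in turn gave 2 to 4 members at 2M, 0 to 4 at 4M, 1 to 2 at 6M, 4 to 6 for the average, 0 to 1 for strain by age, 0 to 1 in BALB/c versus 1 to 3 in NOD.H-2b. Over these, the strain by age value ranged from -1.91 to 0.55 for Saa3 (positive without BALB/c 6M replicate 2), and from -2.21 to 0.29 for S100a9 and -6.41 to 0.57 for Cxcl2 (both positive without BALB/c 6M replicate 3). Without both of these mice it was 0.033 for Saa3 and 0.61 for Cxcl2. From 2M to 6M in NOD.H-2b, Saa3 ranged from -0.55 to 1.10, positive without 2M replicate 1 and, at 0.19, without 6M replicate 3. None of the values that changed sign had passed a test, and the cause of these changes was not tested.

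The replicate numbers did not pair the mice, with correlations of deviations from -0.21 to 0.10. With the replicate block, 3 members were called at 2M, 3 at 4M (Cxcl1 added, adjusted p = 0.00437), 1 at 6M, 6 for the average (Lcn2 added) and 0 for strain by age, and Saa3 from 2M to 6M in NOD.H-2b turned to 0.06. Depth limits S100a8, Cxcl5, Cxcr2 and Retnlg, which were never tested in the 7 comparisons with the filter on low counts.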

Other observations

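Some secreted defense genes of the gland with far higher levels than the 10 members are given here as values, chosen after they were seen. Hp, which encodes the acute phase protein haptoglobin, was at 461, 446 and 459 CPM for BALB/c versus 415, 384 and 449 CPM for NOD.H-2b mice of 2M, at 525, 540 and 570 against 315, 384 and 402 CPM at 4M, and at 461, 444 and 592 against 224, 257 and 253 CPM at 6M. Ltf, which encodes the iron-binding tear protein lactoferrin, was at 578, 591 and 586 against 811, 706 and 871 CPM at 2M, at 596, 664 and 644 against 609, 778 and 740 CPM at 4M, and at 521, 556 and 614 against 609, 538 and 602 CPM at 6M. The strains did not overlap for Hp at 4M and 6M and for Ltf at 2M, and overlapped for Hp at 2M and for Ltf at 4M and 6M.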
